A study of Mus musculus with 6 samples.

Results

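The genes of the cytosolic ribosome's proteins were followed in the injured spinal cord of wild-type mice given syringin or vehicle. Members were chosen by name (Rpl or Rps with a number and at most 1 of the letters a, x or l after it, or Rplp0, Rplp1, Rplp2 or Rpsa), were not typed as pseudogenes, and had a mean of 10 or more counts over the 6 libraries. The rule took 80 of the 37475 genes in the deposited table, 48 with a large subunit name and 32 with a small subunit name. Of 82 names that matched, 2 were typed as pseudogenes and none fell under the count minimum. The lowest members were Rpl39l at a mean of 10.7 counts and Rpl3l at 13.2, and no matching name lay just outside the minimum. The members include 76 of a reference set of 80 ribosomal proteins. The rest of that set, such as Rack1, have gene names that do not match, and 4 members outside it are paralogues (Rpl3l, Rpl39l, Rps4l and Rps27l).

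RNA sequencing was done on cord tissue taken 3 days after a contusion, a blunt impact, at thoracic level 10. The animals of the PBS group received phosphate-buffered saline into the abdominal cavity each day, and those of the syringin group received syringin, a plant phenylpropanoid glucoside, at 50 mg/kg a day by the same route. All animals of both groups carried the injury, there were 3 biological replicates per group, and uninjured cord was not analysed here. The libraries were made from polyadenylated RNA of bulk tissue.

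Each ribosome is a small subunit, which reads the mRNA, joined to a large subunit, which makes the peptide bonds, and nearly every ribosomal protein is present once per particle. Ribosomal protein mRNAs start with a run of pyrimidines at the cap (a terminal oligopyrimidine, or TOP, start), through which the kinase mTORC1 and the protein LARP1 set how strongly they are translated. Cells that grow or divide make many ribosomes, and neurons, glia and invading immune cells differ in how much of their mRNA encodes ribosomal proteins.

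The libraries held 65579117 to 78843034 counts, of which 4.63% to 7.0% came from mitochondrially encoded genes. Markers of cord tissue were abundant: 8 oligodendrocyte markers summed to 18530 to 25340 CPM (counts per 1e+06 counts after scaling) in each library. Markers of sensory ganglion neurons, whose cell bodies lie outside the cord, summed to 369.2 CPM in the first PBS library. They summed to 300.9 CPM in the first syringin library and 142.8 CPM in the third, against 28.94 to 60.66 CPM in the other 3. This division crosses the treatment groups.

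The sequence at the start of these genes is shown first because it is what the family is known to share. RefSeq windows (GRCm38.p6) of 250 bases before to 50 after the annotated start matched 59 of the 80 members. A run of 10 or more pyrimidines between 25 bases before and 50 bases after the start was found in 62.7% of those members and in 12.9% of all 27025 windows, and the longest run had a median of 10 bases in members and 6 in all windows. The runs of Rps18 (chr17:33955648-33955677, minus strand), Rps6 (chr4:86857349-86857378, minus strand) and Rpl38 (chr11:114668568-114668597, plus strand) are TOP runs at the annotated start. Rplp2 (chr7:141447636-141447665, plus strand) and Rps26 (chr10:128626485-128626514, minus strand) are shown as 2 genes that passed the test below, Rpl11 (chr4:136053358-136053387, minus strand) for its long run, and Rps27l (chr9:66946053-66946082, plus strand) as a paralogue. Counted from the annotated start, the run begins at -5 in Rplp2, 4 in Rps26, 14 in Rpl11 and -22 in Rps27l. Those of Rps26, Rpl11 and Rps27l do not cover the start. Capitals mark the longest pyrimidine run, and each line reads 5′ to 3′ on the gene's strand.
Rps18: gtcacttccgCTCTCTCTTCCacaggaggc
Rps6: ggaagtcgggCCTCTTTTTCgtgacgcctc
Rpl38: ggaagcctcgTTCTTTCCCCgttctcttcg
Rplp2: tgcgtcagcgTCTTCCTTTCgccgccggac
Rps26: aagccgccggaTCCTCTTTCgagtcttggc
Rpl11: ccggaagTCTCCCTCTCTCTTCCTgttctc
Rps27l: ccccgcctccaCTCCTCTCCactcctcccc

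The letters CGGAAG are the core that ETS family factors such as GABP bind. On either strand they occurred in 69.5% of the 59 members' windows and in 17.2% of all windows. This search and those below took the whole window, 250 bases before to 50 after the start. The palindrome CTCGCGAG stood in the windows of 6 members (Rpl12, Rpl26, Rpl27a, Rps19, Rps28 and Rps6), 10.2% of the 59 against 1.0% of all. The GC box GGGCGG occurred in 57.6% against 35.9%, AAGATGGC, the letters bound by YY1, in 6.8% against 2.9%, the E-box CACGTG in 8.5% against 7.2%, and the TATA box TATAAA in 8.5% against 14.2%. All were searched on both strands, CGGAAG and AAGATGGC can share letters with a pyrimidine run on the other strand, and the motifs were chosen after the sequences had been seen. The 100 bases before the start of Rps18 (chr17:33955666-33955765, minus strand) and Rps6 (chr4:86857368-86857467, minus strand) hold 3 copies of the ETS core each, marked in capitals, while those of Rps27l (chr9:66945986-66946085, plus strand) hold none.
Rps18: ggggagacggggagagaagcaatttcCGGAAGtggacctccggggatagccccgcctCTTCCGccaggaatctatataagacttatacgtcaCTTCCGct
Rps6: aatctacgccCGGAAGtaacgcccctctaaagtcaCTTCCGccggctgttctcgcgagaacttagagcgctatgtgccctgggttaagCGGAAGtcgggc
Rps27l: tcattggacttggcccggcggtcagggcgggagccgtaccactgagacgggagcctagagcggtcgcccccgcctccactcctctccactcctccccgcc

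The question of the comparison was how the syringin group's cord differed from that of the PBS group. Ribosomal protein genes took a larger share of the counts in every syringin library than in any PBS library. The share was 1.615%, 1.645% and 1.472% in the PBS libraries (1.577% ± 0.0924, SD, n = 3) and 1.956%, 1.822% and 1.935% in the syringin libraries (1.904% ± 0.0721, SD, n = 3). PBS library 3 was the lowest and syringin library 1 the highest, and the gap between the groups, from 1.645% to 1.822%, was wider than either SD. The ratio of the means was 1.207, and it was 1.201 when mitochondrially encoded genes were left out of the total. Of the summed FPKM, which scales each gene by its transcript length, the members took 2.769% ± 0.171 and 3.278% ± 0.226 (SD, n = 3 each). In bulk tissue, a change in the number of cells of a type and a change in RNA per cell cannot be told apart.

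The higher level in the syringin group was spread over the family and not carried by a few abundant genes. Of the 79 members tested, 5, 18 and 1 lay above their own mean over the 6 libraries in PBS libraries 1, 2 and 3, and 77, 75 and 70 did in syringin libraries 1, 2 and 3. The median member lay 0.11, 0.08 and 0.25 below its mean (log2 CPM) in the PBS libraries and 0.15, 0.10 and 0.20 above it in the syringin libraries. Without Rpsa, the most abundant member by counts, the share ran from 1.4% to 1.569% in PBS and from 1.735% to 1.856% in syringin libraries.

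**Figure D1:**
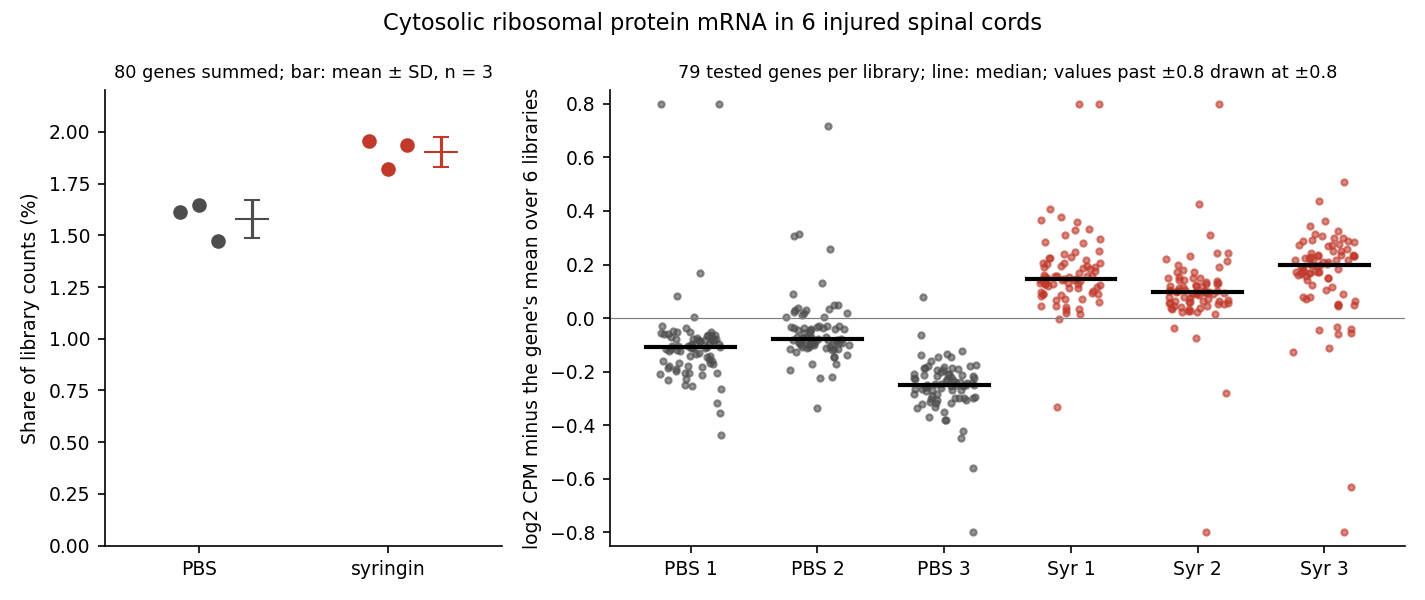
Left, the percent of each library's counts that fell on the 80 ribosomal protein genes (1 point per library, bar with mean ± SD, n = 3). Right, the log2 CPM of each of 79 tested genes minus that gene's mean over the 6 libraries, with the median as a line; the 3 syringin medians, 0.15, 0.10 and 0.20, lie above 0 and the 3 PBS medians below it.

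Gene by gene, 4 of the 79 members rose past the threshold (edgeR quasi-likelihood test, Benjamini-Hochberg adjusted p under 0.05 over 22114 genes) and none fell; 75 did not pass. Over all genes tested, 5.01% passed in either direction and 1.62% were higher. The median log2 fold change of the members, syringin minus PBS, was 0.28 (a factor of 1.217, with the middle 50% of members between 0.23 and 0.33), against 0.01 over all genes tested and 0.04 over the 4864 genes with a mean above 50 CPM. Fold changes were above 0 for 77 members, or 97.5%, and for 50.9% of all genes. Before adjustment, 57 members had a p under 0.05 and all 57 were higher, where 11.5% of all genes were. At an adjusted p under 0.10, 32 of the 79 were higher, where 4.66% of all genes were. In 65 members every syringin library exceeded every PBS library, in none was the order the reverse, and the first of these patterns held for 14.7% of all genes. Members are not independent of each other: over the 6 libraries the median Pearson r between 2 members' log2 CPM was 0.88 (3081 pairs, -0.69 to 1.0), a description of genes that share libraries and scaling.

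**Figure D2:**
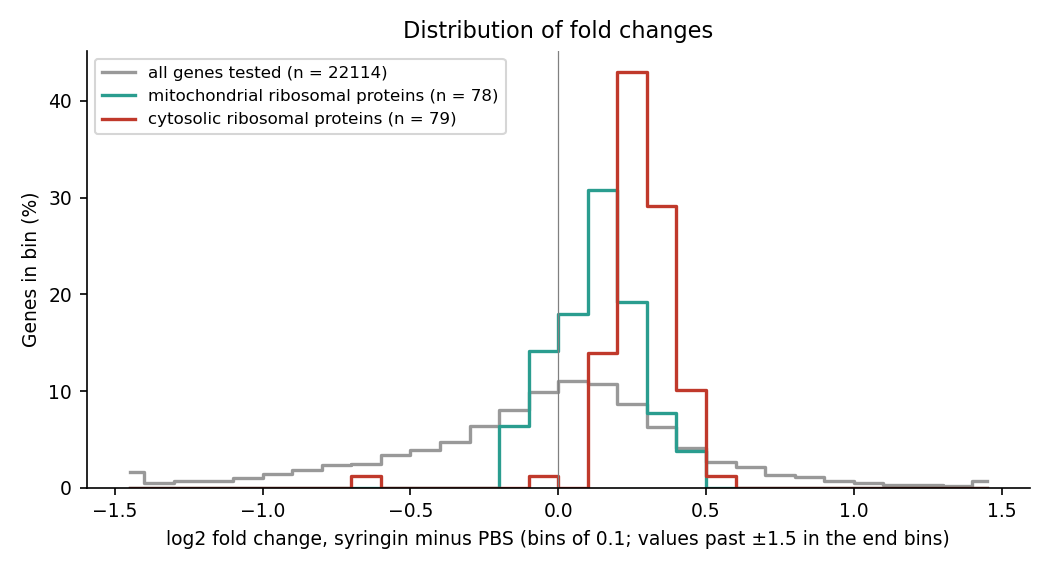
Percent of genes per bin of 0.1 in log2 fold change (syringin minus PBS) for all 22114 genes tested, 78 mitochondrial ribosomal protein genes and 79 cytosolic ones. The cytosolic genes form a narrow peak around their median of 0.28, apart from 2 genes under 0 (Rps27 and Rpl3l), while the fold changes of all genes spread on both sides of 0.

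Individual calls depended on the libraries used. Leaving out PBS library 1, 2 or 3 or syringin library 2 or 3 left 0 members called, and leaving out syringin library 1 left 8; without composition factors no member passed, while DESeq2 called 23. The calls over all genes moved with them: 0 to 436 in the 5 fits that left no member, 1944 without syringin library 1, 1002 without composition factors and 2799 with DESeq2, against 1108. The median member fold change stayed between 0.23 and 0.33 in all of these fits.

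The 4 genes that rose were Rplp2, Rps26, Rps2 and Rps27l. Rplp2 encodes P2, an acidic protein of the flexible stalk that recruits elongation factors to the large subunit. It measured 84.8, 95.1 and 79.03 CPM in the PBS libraries and 117.7, 114.2 and 121.8 CPM in the syringin libraries. The lowest syringin library lay well above the highest PBS library, and the log2 fold change was 0.45 ± 0.09 (SE, adjusted p = 0.0396). Rps26 encodes a protein at the channel through which mRNA leaves the small subunit. Its levels were 136.9, 151.1 and 130.0 CPM with PBS and 182.8, 189.9 and 183.4 CPM with syringin. The syringin libraries were close to each other and all above the PBS libraries (log2 fold change 0.41 ± 0.09, adjusted p = 0.0410).

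Rps2, whose protein lies near the mRNA entry of the small subunit, measured 570.0, 572.8 and 517.9 CPM with PBS against 735.7, 727.2 and 793.7 CPM with syringin. No library of 1 group reached the range of the other, and the log2 fold change was 0.44 ± 0.09 (adjusted p = 0.0413). Rps27l, a paralogue of Rps27 known as a target of p53, was much the lowest of the 4 in counts. It measured 15.3, 19.3 and 16.02 CPM with PBS against 25.2, 27.8 and 23.8 CPM with syringin. It had the highest fold change of all members, 0.60 ± 0.13 on the log2 scale (adjusted p = 0.0422), with no overlap between groups. Over the alternatives run, the adjusted p of Rplp2 ranged from 0.00452 to 0.19, that of Rps26 from 0.00571 to 0.201, that of Rps2 from 0.00194 to 0.205 and that of Rps27l from 0.00201 to 0.201.

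**Figure D3:**
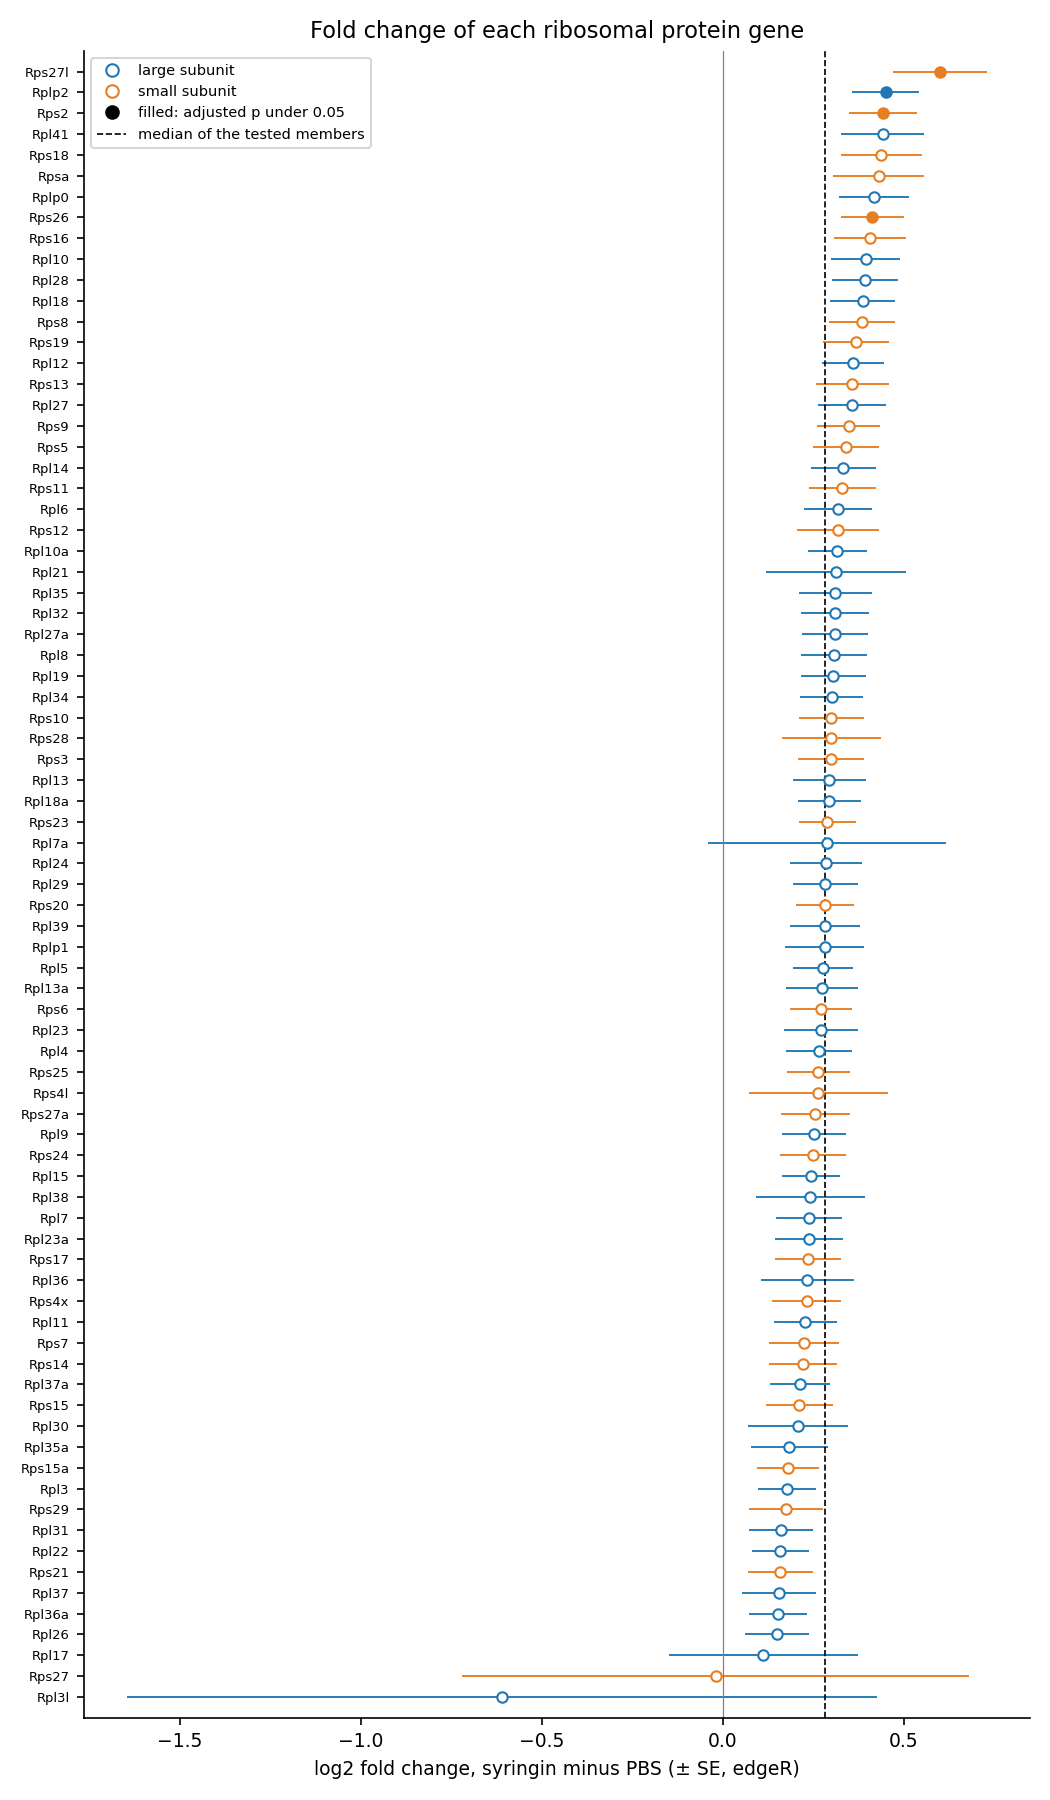
Log2 fold change, syringin minus PBS, with its SE from edgeR for each of the 79 tested ribosomal protein genes, large subunit in blue and small subunit in orange. The 4 filled points passed the adjusted threshold; most open points lie near the dashed median of 0.28, with wide errors for Rpl7a, Rpl17, Rps27 and Rpl3l.

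The other stalk proteins were also higher with syringin, without passing. Rplp0, which anchors the stalk, measured 654.0, 664.0 and 591.7 CPM with PBS against 813.8, 843.1 and 894.7 CPM with syringin, with a log2 fold change of 0.42 ± 0.10 and an adjusted p of 0.0502. Rplp1, the partner of P2, measured 298.1, 361.5 and 293.5 CPM against 381.6, 365.4 and 410.9 CPM; its highest PBS library lay just under its lowest syringin library (log2 fold change 0.28 ± 0.11, adjusted p = 0.172). Per transcript length Rplp1 had the highest level of all members, with a mean of 648.6 FPKM, followed by Rplp0 at 412.0 and Rps15 at 351.8 FPKM.

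Rpl5 and Rpl11 form a particle with 5S rRNA that can hold the p53 regulator MDM2 when ribosome assembly stalls. Rpl5 measured 315.6, 331.5 and 310.5 CPM with PBS and 369.0, 395.2 and 395.6 CPM with syringin (log2 fold change 0.28 ± 0.08, adjusted p = 0.0976). Rpl11 measured 227.7, 232.3 and 204.2 CPM against 263.9, 249.4 and 264.1 CPM (0.23 ± 0.09, adjusted p = 0.167). Both had groups that did not overlap and neither passed.

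Rps6, the protein that S6 kinases phosphorylate downstream of mTORC1, measured 406.2, 392.2 and 364.8 CPM with PBS and 476.4, 453.8 and 474.4 CPM with syringin (log2 fold change 0.27 ± 0.09, adjusted p = 0.110). Rps27a, made as a fusion with ubiquitin, measured 189.9, 197.1 and 171.2 CPM against 219.3, 208.3 and 238.7 CPM (0.26 ± 0.10, adjusted p = 0.155). Rps19, mutated in Diamond-Blackfan anaemia, measured 119.0, 114.0 and 100.1 CPM against 148.8, 139.1 and 142.1 CPM (0.37 ± 0.09, adjusted p = 0.0618). In each of the 3 genes the syringin libraries were all above the PBS libraries, and none passed.

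Proteins named in work on specialised ribosomes, and a common reference gene, did not pass either. Rpl10, which joins the large subunit late in its assembly, measured 295.2, 314.0 and 282.0 CPM with PBS and 356.6, 396.2 and 418.1 CPM with syringin, without overlap (log2 fold change 0.39 ± 0.10, adjusted p = 0.0580). Rps25, studied in initiation at internal ribosome entry sites, measured 178.4, 173.2 and 156.9 CPM against 206.9, 192.9 and 210.7 CPM, also without overlap (0.26 ± 0.09, adjusted p = 0.122). Rpl38, needed for translation of some Hox mRNAs in the mouse embryo, measured 32.4, 38.2 and 29.1 CPM against 46.2, 38.4 and 33.2 CPM. Its groups overlapped, since PBS library 2 exceeded syringin library 3 (0.24 ± 0.15, adjusted p = 0.381). Rpl13a, a common reference gene of quantitative PCR, measured 336.8, 338.6 and 297.9 CPM against 391.5, 361.6 and 422.9 CPM, without overlap (0.27 ± 0.10, adjusted p = 0.150).

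A further 3 genes were among the 6 with the highest fold changes. Rpl41, the shortest ribosomal protein, measured 218.8, 244.3 and 188.4 CPM with PBS against 312.9, 298.4 and 273.0 CPM with syringin (log2 fold change 0.44 ± 0.12, adjusted p = 0.0692). Rps18, a protein of the small subunit's head, measured 167.5, 155.3 and 136.2 CPM against 227.7, 185.8 and 208.5 CPM (0.44 ± 0.11, adjusted p = 0.0673). Rpsa, which is also known as a laminin receptor, measured 802.5, 746.8 and 712.8 CPM against 971.2, 896.3 and 1181 CPM (0.43 ± 0.13, adjusted p = 0.0927). All 3 had groups that did not overlap.

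Rpl3 and Rps15 had fold changes below the members' median. Rpl3, a protein close to the peptidyl transferase centre, measured 473.6, 466.3 and 454.3 CPM with PBS and 526.7, 528.4 and 521.7 CPM with syringin. The libraries of each group were close to each other, the groups did not overlap, and the log2 fold change was 0.18 ± 0.08 (adjusted p = 0.233). Rps15, a protein of the small subunit's head, measured 225.9, 233.7 and 210.6 CPM against 245.1, 249.4 and 281.0 CPM, without overlap (0.21 ± 0.09, adjusted p = 0.217).

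The genes of both subunits had similar fold changes. The median log2 fold change was 0.28 over 47 large subunit genes, of which 1 rose, and 0.29 over 32 small subunit genes, of which 3 rose. Over all genes 1.62% rose. In 38 and 27 of them the syringin libraries were all above the PBS libraries, which held for 14.7% of all genes. The ratio of large to small subunit counts was 1.415, 1.46 and 1.429 in the PBS libraries and 1.415, 1.451 and 1.352 in the syringin libraries, so the groups overlapped. The 6 genes whose fold changes had the highest SE, from 0.19 to 1.04, held much of the spread among members. They are Rpl3l, Rps27, Rpl17, Rpl7a, Rps4l and Rpl21, and were chosen after the values were seen. Over all 79 the SD of the log2 fold changes was 0.14. Over the other 73 it was 0.09, with values from 0.15 to 0.60. The SE of 1 member (median 0.09) includes variation between libraries that members share, so it does not measure the spread between members. Members lie on 19 chromosomes. Their transcripts are short, with a median of 638.5 bases against 1537.5 over all genes, and across members the fold change had a Pearson r of -0.13 with log2 length and 0.55 with log2 FPKM. Without the 6 genes these were 0.15 and 0.11.

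Several members cannot be read alone, because processed copies of ribosomal protein genes are scattered over the genome and reads from a gene can be given to a copy. In the table, 61 members had 245 rows named as their copies, and these held 5.94% of the families' counts. The copies' share was above 10% for 15 members and above 25% for 8, led by Rpl21 at 68.57%, Rpl17 at 63.62% and Rps27 at 53.34%. Rps27 itself measured 38.9, 24.0 and 7.87 CPM with PBS and 34.5, 7.61 and 27.6 CPM with syringin, a spread that crossed both groups (log2 fold change -0.02 ± 0.70, adjusted p = 0.991). Its counts were 2938, 1614 and 537 in the PBS libraries and 2801, 486 and 1878 in the syringin libraries, where those of its 2 copies were 1109, 1958 and 2668, and 1813, 2743 and 1429. Where the gene was low the copies were high, and the sum was 53.6, 53.1 and 46.9 CPM against 56.9, 50.6 and 48.6 CPM, nearly level over the 6 libraries and overlapping between groups (log2 fold change 0.02 ± 0.10, adjusted p = 0.914).

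The same happened in Rpl17, with the opposite outcome for the groups. Alone it measured 107.6, 75.9 and 101.2 CPM with PBS and 127.1, 118.7 and 61.9 CPM with syringin, with overlap (log2 fold change 0.11 ± 0.26, adjusted p = 0.845). With its copies it measured 257.9, 256.1 and 239.5 CPM against 291.0, 287.5 and 310.1 CPM, without overlap (0.24 ± 0.08, adjusted p = 0.133). Rpl7a with its copies still varied between libraries and overlapped between groups: its sum was 207.5, 233.0 and 171.9 CPM with PBS and 228.8, 291.5 and 232.4 CPM with syringin (0.30 ± 0.14, adjusted p = 0.253). Rpl21 alone measured 22.4, 33.4 and 20.5 CPM against 36.3, 29.0 and 29.5 CPM, with overlap (0.31 ± 0.19, adjusted p = 0.379). Its sum overlapped as well (0.24 ± 0.12, adjusted p = 0.288). Of the 4 genes that rose, the sums with copies of Rplp2, Rps26 and Rps2 kept adjusted p-values of 0.0398, 0.0402 and 0.041. Rplp0, whose copy held 0 to 3 counts, went from an adjusted p of 0.0502 alone to 0.0489 in that edgeR fit. The way shared reads were divided between copies was not given in the sources used here.

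**Figure D4:**
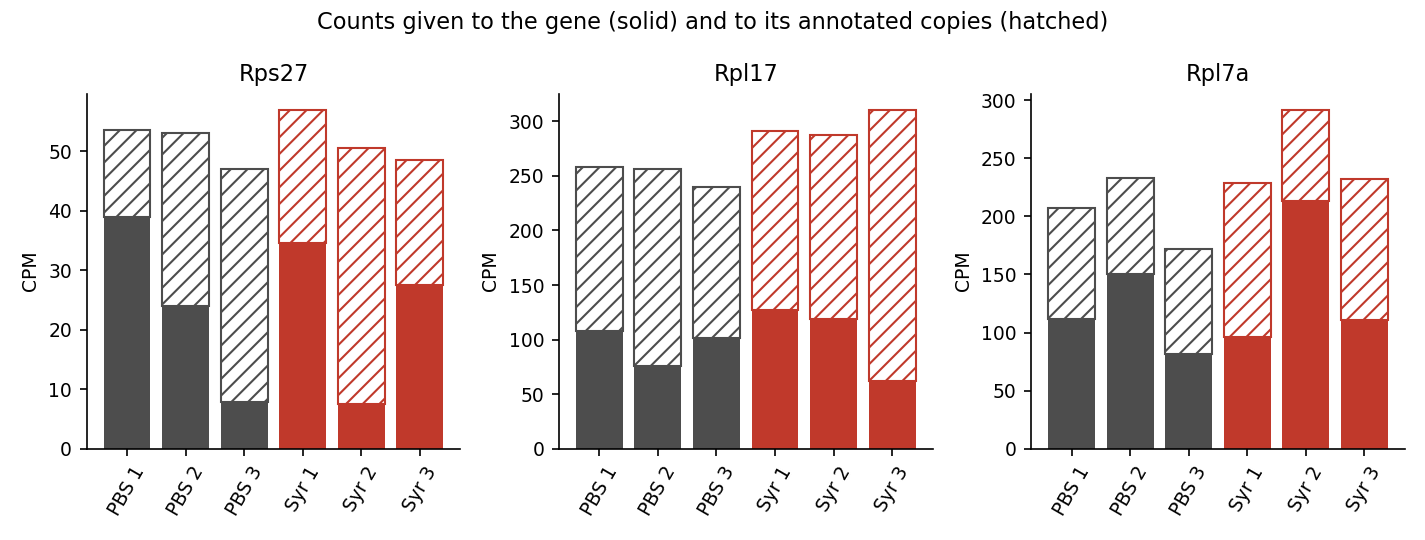
CPM given to Rps27, Rpl17 and Rpl7a (solid) and to rows named as their copies (hatched) in each library. In Rps27 the solid part falls from 38.9 to 7.87 CPM within the PBS group while the whole bar stays between 46.9 and 56.9 CPM over all 6 libraries; each vertical axis has its own scale.

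Of the paralogues taken by the rule, Rps27l rose, as above, and the other 3 did not pass or were not tested. Rps4l measured 27.6, 24.7 and 20.01 CPM with PBS and 32.7, 21.4 and 32.6 CPM with syringin, with overlap (log2 fold change 0.26 ± 0.19, adjusted p = 0.455). Its parent Rps4x, on the X chromosome, measured 453.4, 453.3 and 423.5 CPM against 479.0, 524.3 and 557.4 CPM, without overlap (0.23 ± 0.09, adjusted p = 0.189). Rpl3l, the striated muscle paralogue of Rpl3, had 24, 16 and 7 counts with PBS and 23, 9 and 0 with syringin (-0.61 ± 1.04, adjusted p = 0.778). Rpl39l, best known from testis, had 33, 13 and 7 counts against 11, 0 and 0 and was not tested, since it failed the filter on low counts; a count of 0 allows up to 3 counts, for counting error only. Its parent Rpl39 measured 51.5, 55.4 and 47.1 CPM against 67.0, 61.6 and 58.6 CPM, without overlap (0.28 ± 0.10, adjusted p = 0.134).

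Genes near the ribosome that the naming rule does not take were examined beside the members. For comparison, 5.01% of all 22114 genes tested passed and 5214 had an unadjusted p under 0.05 (edgeR), in either direction. Of 7 other ribosomal components, 0 passed and 6 had an unadjusted p under 0.05 (edgeR), with a median log2 fold change of 0.305. Rack1, a signalling scaffold on the small subunit, had the smallest p of the 7. It stood at 395.1, 399.7 and 354.8 CPM with PBS against 492.7, 499.9 and 504.9 CPM with syringin, without overlap (log2 fold change 0.38 ± 0.09, adjusted p = 0.0502). Rpl22l1 overlapped between the groups (0.13 ± 0.12, adjusted p = 0.577). Of 10 chaperones and escorts of ribosomal proteins, 0 passed and 6 had an unadjusted p under 0.05 (edgeR), with a median of 0.28. Rrs1, which helps to place the 5S particle, had the smallest p of these (0.45 ± 0.11, adjusted p = 0.0620).

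The ribosomal proteins of mitochondria, which serve a separate ribosome and are also encoded in the nucleus, had smaller fold changes. Of 78 tested, 1 rose and none fell, where 1.62% of all genes rose. In 12 the unadjusted p was under 0.05 (edgeR) and all 12 were higher, where 11.5% of all genes were. The median log2 fold change was 0.13. Syringin libraries exceeded all PBS libraries in 24 of them, where 14.7% of all genes did, and the reverse held in 1. The gene that rose was Mrpl17, at 40.1 ± 1.20 CPM with PBS and 51.8 ± 1.22 CPM with syringin (SD, n = 3 each; log2 fold change 0.37 ± 0.08, adjusted p = 0.0424).

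Other mRNAs with a TOP start had a median fold change a little under that of the ribosomal proteins. Of 14 such mRNAs, 0 passed, 9 had an unadjusted p under 0.05, and all 14 fold changes were above 0, with a median of 0.24. Among all 22114 genes tested, 5214 had an unadjusted p under 0.05 (edgeR) and 50.9% had a fold change above 0. Pabpc1, the poly(A) binding protein, measured 377.3, 404.1 and 382.2 CPM with PBS against 475.1, 558.9 and 497.0 CPM with syringin (0.40 ± 0.10, adjusted p = 0.0571). Eif4b, at 256.9 against 257.0 CPM, was level between the groups (0.00 ± 0.10, adjusted p = 0.997). The 8 noncoding TOP transcripts that host small nucleolar RNAs had a median of 0.24, with 0 passing and 2 at an unadjusted p under 0.05. Snhg5 had the smallest p among them, at 11.3, 12.0 and 11.6 CPM against 16.5, 15.2 and 16.9 CPM (0.48 ± 0.12, adjusted p = 0.0574).

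Paralogues among the elongation factors lay on opposite sides of 0. The neuronal and muscle form Eef1a2 fell, from 330.9, 265.9 and 282.6 CPM with PBS to 198.2, 143.3 and 169.9 CPM with syringin (log2 fold change -0.78 ± 0.14, adjusted p = 0.0260). Its widespread counterpart Eef1a1 measured 3546, 3827 and 3447 CPM against 4412, 4944 and 4649 CPM, without overlap (0.37 ± 0.12, adjusted p = 0.103). Of the 10 elongation genes, 0 rose and 1 fell, where 359 of all 22114 genes rose and 749 fell. Among 14 initiation factors 1 rose and none fell: Eif4a1, the helicase that opens the mRNA's leader, measured 374.1, 344.8 and 337.6 CPM against 540.2, 540.7 and 486.1 CPM (0.57 ± 0.09, adjusted p = 0.0212). Its paralogue Eif4a2 went from 436.4 to 346.5 CPM in the group means (-0.33 ± 0.09, adjusted p = 0.0657).

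Genes of mTORC1 and of the regulators of TOP mRNAs had a median near that of all genes. Of 20, 1 rose and none fell, 2 had an unadjusted p under 0.05, and the median log2 fold change was 0.01. Among all 22114 genes tested, 359 rose, 749 fell and 5214 had an unadjusted p under 0.05 (edgeR). Eif4ebp1, a repressor of cap-dependent initiation that mTORC1 inactivates, rose from 19.1, 17.0 and 14.8 CPM with PBS to 28.9, 29.6 and 25.4 CPM with syringin (0.72 ± 0.13, adjusted p = 0.0266). Larp1 measured 133.3 and 135.6 CPM in the group means (0.02 ± 0.12, adjusted p = 0.933), and Mtor 77.6 and 65.7 CPM (-0.24 ± 0.11, adjusted p = 0.238). Messenger levels do not measure mTORC1 activity or translation. Of 11 genes that rescue stalled ribosomes, 0 passed and 1 had an unadjusted p under 0.05, with a median of 0.08; Abce1, the recycling factor, had the smallest p (0.21 ± 0.08, adjusted p = 0.176).

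Markers of several cell types moved with the groups. The marker lists were chosen with earlier results of these data known. Of all 22114 genes tested, 359 (1.62%) rose and 749 fell. Of 12 monocyte and macrophage markers 5 rose and none fell. Their summed level was 5125 to 6091 CPM in the PBS libraries and 7344 to 17830 CPM in the syringin libraries. Spp1, which did not pass, held much of that sum, at 2526, 3375 and 2862 CPM with PBS against 3616, 10260 and 6262 CPM with syringin. Syringin libraries all exceeded the PBS libraries in 7 of the 12, where 14.7% of all genes had this pattern. Ccr2 and Ly6c2 overlapped between the groups. Of 12 neuron markers none rose and 7 fell, with sums of 3459 to 4337 CPM against 1706 to 2406 CPM. Of 8 astrocyte markers 3 fell, with sums of 7340 to 8875 CPM against 4873 to 6739 CPM. Of 8 markers of cycling cells 3 rose (Mcm2, Mcm5 and Pcna), with sums of 386.7 to 536.4 CPM against 567.5 to 900.4 CPM. In these 4 lists the groups' summed levels did not overlap, as in the ribosomal protein share. Within the groups the order of libraries varied. In the syringin group, library 2 had the highest macrophage and cycling sums and the lowest ribosomal protein share. In the PBS group, library 2 had the highest cycling sum, the lowest neuron sum and the highest share. None of the markers in these 4 lists was at 0 in any library. The part of these cell types in the ribosomal protein result was not tested.

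Summed levels of the other lists overlapped between the groups. Lymphocyte markers, from cells known for a high share of ribosomal protein mRNA, summed to 4.13 to 9.76 CPM with PBS and 7.36 to 15.3 CPM with syringin, and 0 of 11 passed (3 at an unadjusted p under 0.05). Among all 22114 genes tested, 5.01% passed and 5214 had an unadjusted p under 0.05 (edgeR). Of the lymphocyte markers, Cd3g, Cd79a and Ms4a1 were at 0 in 1 or 2 libraries each. In the 5 lists of oligodendrocyte, homeostatic microglia, neutrophil, erythroid and skeletal muscle markers 1 marker passed, the neutrophil gene Mmp8. The sensory ganglion markers, which divide the libraries across the groups, had 0 of 11 passing and 0 at an unadjusted p under 0.05. Adding their level as a covariate raised the members called from 4 to 20 and the calls over all genes from 1108 to 2581, at a median member fold change within the range given above.

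**Figure D5:**
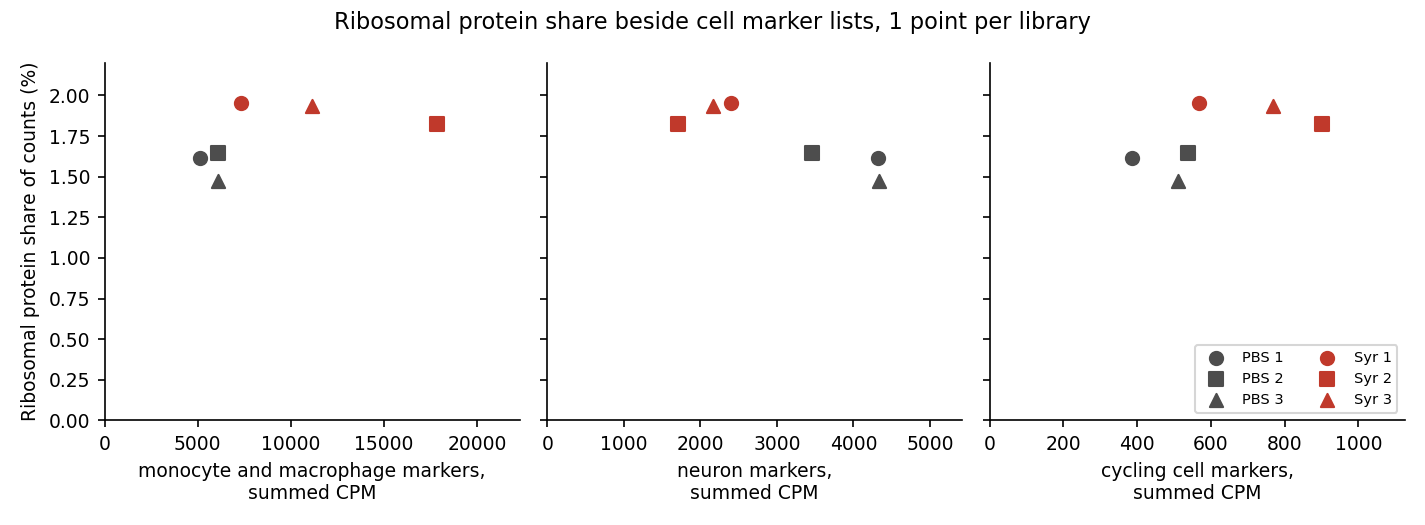
Percent of counts on ribosomal protein genes against the summed CPM of monocyte and macrophage markers, neuron markers and cycling cell markers, 1 point per library. Groups separate on every axis; library 2 has the lowest share of the syringin group, 1.822%, and the highest of the PBS group, 1.645%.

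Members with and without these letters at their start had overlapping fold changes. The median log2 fold change was 0.29 in the 40 tested members with an ETS core in the window and 0.29 in the 18 without. It was 0.27 in 37 members with a pyrimidine run of 10 or more and 0.31 in 21 without. Rps18 and Rps6, whose upstream sequences above both hold 3 ETS cores, had log2 fold changes of 0.44 ± 0.11 and 0.27 ± 0.09. Rps27l, with none in those 100 bases but a core elsewhere in its window, counts among the 40 and had their highest value, 0.60. A match says only that these letters are in the window.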

How the data were processed

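RNA was sequenced from the injured cord of 6 mice, 3 per group. Per the labels' protocols, TRIzol was used for RNA isolation and a TruSeq stranded kit for the mRNA libraries. HISAT2, StringTie and GRCm38 (mm10) are named, without versions, in the submitters' processing notes. The authors deposited 1 table that gives each gene's estimated count and FPKM (scaled by length and library size) in each library. The deposited estimated counts are whole numbers, so rounding changed nothing. The use of strand in counting was not given in the sources used here. Small counts pile up at multiples of 4 (4 was 1.51 times as frequent as its neighbours), so 1 fragment may add several counts and the counting error may be larger than the totals imply.

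Members and gene lists were chosen with earlier results of these data known. Counts were TMM-scaled (trimmed mean of M-values), filtered with filterByExpr (minimum count 10, minimum total 15) and fitted with edgeR 4.0.16 (quasi-likelihood, robust, treatment as the only term, two-sided) in R 4.3.3, over all 22114 genes. CPM are TMM-scaled counts per 1e+06, and the SE of a fold change is its size divided by the root of its F statistic. Named genes were the members called, the extremes by fold change, p and FPKM, members of set roles, and paralogues with their parents. Of the pathway lists, called genes and those with the smallest p were named; Eif4b, Eef1a1, Eif4a2, Larp1 and Mtor were chosen after their values were seen. Some genes of the lists are not reported here. Copies are rows named as pseudogenes or retrotransposed copies of a member.

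The alternatives were other scalings, DESeq2 1.42.0, limma 3.58.1 (voom, and log2(FPKM + 0.1)), other filters, a replicate block, offsets for transcript length and GC, a ganglion marker covariate, counts divided by 4, each library left out, and, chosen after seeing the data, counts of copies added. On simulated counts of this comparison (21568 genes, 50 changed at each size) edgeR recovered 24% of genes at log2 0.58, 72% at 1, 90% at 1.5 and 98% at 2, and 7 of its 149 calls were false. The changed genes were drawn at random from those above 1 CPM, and each gene varied on its own, unlike the members. Changes of the members' median size were not simulated, so these rates do not describe the members. Within each group the libraries differed beyond counting noise, and p-values measure the spread between these animals. Python 3.11.15, pandas 2.3.3 and matplotlib 3.10.9 made tables and figures.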

Additional observations from a re-analysis of the deposited data

How the results depend on the processing

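The members' median log2 fold change stayed positive in every fit, at 0.23 to 0.33 with each library left out in turn and 0.25 to 0.28 under the other settings, and 76 to 78 members were above 0. The number called was less stable. It was 0 without composition factors (46 members at an unadjusted p under 0.05), 1 with limma on log2(FPKM + 0.1), 9 with counts divided by 4, 11 with a filter of 1 CPM in 3 libraries, 20 with the ganglion covariate and 23 with DESeq2. It was 0 to 8 when 1 library was left out (32 to 56 at an unadjusted p under 0.05). Over all genes the 1108 calls became 2799 with DESeq2, 2581 with the ganglion covariate and 0 to 1944 with 1 library left out; without PBS library 3 none passed in edgeR, though 3449 had an unadjusted p under 0.05. The replicate block gave 2557 calls over all genes and 18 members. Deviations of same-numbered libraries from their group means correlated with r = 0.292, 0.123 and 0.052, and those of the other pairs with -0.229 to 0.135. Syringin library 2 correlated best with PBS library 3 (0.135). Whether the replicate numbers pair the libraries cannot be told from these values. An offset for transcript length moved the calls from 359 higher and 749 lower to 518 and 572, and the median of all genes to 0.07, with the members at 0.26. For mitochondrial ribosomal proteins the single call became 0 without composition factors, without a filter and with limma on FPKM, and 0 in each fit that left out 1 library; their median was 0.11 to 0.17 with 1 library left out and 0.10 to 0.15 otherwise. The difference in share was 0.327 percentage points of counts, 0.274 to 0.368 with 1 library left out, and 0.509 of summed FPKM. Rps27 changed sign, to 0.021 with limma-voom and 0.024 with copies added; with 1 library left out it ran from -0.434 to 0.548 (0.398 without syringin library 2), and it never passed. Depth limits Rpl3l and Rpl39l, whose libraries hold 0 to 33 counts. The cause of these changes was not tested.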
